A study of Homo sapiens with 9 samples.

Results

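The genes described here are 10 cell-intrinsic antiviral restriction factors, MX1, MX2, RSAD2, BST2, SAMD9, SAMD9L, SAMHD1, APOBEC3B, APOBEC3C and APOBEC3G, chosen by name from the 58735 genes of a count table. Expression was measured by poly-A selected RNA-seq without strand information in 9 libraries of OVCAR4, an established human ovarian serous carcinoma cell line. The 3 groups were the scramble (scr) control, shMPZL3 #1 and shMPZL3 #2, with 3 biological replicates each, where shMPZL3 #1 and shMPZL3 #2 are independent hairpins against MPZL3, a predicted cell adhesion molecule. Every group, scr control included, had received a lentiviral hairpin vector and then puromycin for 3 days. The comparison asks which transcripts differ between cells with a hairpin against MPZL3 and cells with the scramble hairpin. No library had MPZL3 restored or lowered by other means. An effect of a hairpin apart from its effect on MPZL3 was therefore not tested. The libraries came from whole cultures, so a higher level in every cell and a larger number of expressing cells cannot be told apart.

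Restriction factors are proteins that block steps of a virus life cycle inside the infected cell. Many of their genes are induced by interferon, which acts through receptors, JAK kinases and transcription factors such as STAT2 and IRF9. Complexes of these factors bind the interferon-stimulated response element (ISRE) in promoters. MX1 and MX2 are dynamin-like GTPases that act on incoming viral nucleoprotein complexes or capsids, and RSAD2 encodes viperin, a radical SAM enzyme that makes a chain-terminating nucleotide. BST2 encodes tetherin, which holds budding virions at the cell surface. SAMD9 and SAMD9L are neighboring genes whose products restrict poxviruses and limit translation, SAMHD1 hydrolyzes dNTPs, and the APOBEC3 enzymes deaminate cytidine in single-stranded DNA.

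Promoter sequence is shown for the start sites that hold an ISRE core, since the interferon list is set beside these genes later. RefSeq promoters on GRCh38.p14, from 250 bases upstream to 50 bases downstream of a start, were given for 6 of the 10 genes, with 9 start sites. MX2, APOBEC3B, APOBEC3C and APOBEC3G were not in the table. The 6 genes given are the same 6 that rose with knockdown, as described below. No gene without a rise could be searched, so the motif cannot be set against the rise. The ISRE core was searched as GAAANNGAAA on both strands (TTTCNNTTTC on the other), and capitals mark the match. It was found at 5 start sites of 4 genes, MX1, RSAD2, BST2 and SAMD9, and in 3.57% of all 35116 promoters of that length. No match was found in the windows of SAMD9L and SAMHD1. The sequences below run 5′ to 3′ in the direction of each gene, at chr21:41420559-41420588 (plus strand) and chr21:41431824-41431893 (plus) for MX1, chr2:6877602-6877671 (plus) for RSAD2, chr19:17405715-17405790 (minus) for BST2 and chr7:93118076-93118145 (minus) for SAMD9.
MX1 start 1: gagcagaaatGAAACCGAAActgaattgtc
MX1 start 3: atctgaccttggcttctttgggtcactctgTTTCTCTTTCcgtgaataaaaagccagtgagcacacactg
RSAD2 start 2: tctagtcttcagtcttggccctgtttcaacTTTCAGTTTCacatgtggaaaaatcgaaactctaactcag
BST2 start 1: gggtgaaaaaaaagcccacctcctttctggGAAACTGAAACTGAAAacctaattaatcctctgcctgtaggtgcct
SAMD9 start 1: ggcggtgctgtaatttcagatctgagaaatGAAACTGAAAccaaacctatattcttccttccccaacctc
The BST2 promoter holds 2 overlapping matches, 124 and 130 bases upstream of its start. The match lies 136 bases upstream in SAMD9, 145 in RSAD2 and 196 at the third start of MX1, and 11 bases downstream of the first start of MX1. The gamma-activated sequence motif TTCNNNGAA (GAS), which reads the same on both strands and occurs in 7.66% of all promoters, was found 136 and 58 bases upstream in BST2, where the farther match overlaps the ISRE core, and 189 bases upstream of the third start of MX1, also overlapping it. A match of letters is a description and does not show that a factor was bound.

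Total counts were 15040102 to 27835841 per library, and 16928 genes passed the filter on low counts. MPZL3, the target, had 536, 611 and 587 normalized counts in scr control, 119, 143 and 123 with shMPZL3 #1 and 284, 380.4 and 271 with shMPZL3 #2, so the groups followed their labels. Its log2 fold change was -2.17 with shMPZL3 #1 (adjusted p = 3.73e-07) and -0.89 with shMPZL3 #2 (adjusted p = 0.000562; edgeR quasi-likelihood test). Of 12 ovarian carcinoma markers 11 were expressed enough to be tested, with WT1 the exception, and 1 of them, WFDC2, rose in the grouped comparison. Of 13 leukocyte markers 4 passed the filter, of which 2, CD14 and CSF1R, rose, MS4A1 and CLEC4C had no count in any library, and their summed normalized counts were 85.1 to 119 in scr control, 131 to 210.0 with shMPZL3 #1 and 151 to 196 with shMPZL3 #2. Those of 9 fibroblast and endothelial markers were 582 to 630.3, 1049 to 1454 and 961 to 1054, with DCN at 0, and 2 of the 6 tested, COL1A1 and LUM, rose. The pan-leukocyte gene PTPRC had 10.2 ± 3.20, 9.09 ± 8.49 and 15.4 ± 10.0 normalized counts in the 3 groups (SD, n = 3). Both marker sums moved with the knockdown and with the restriction factors, and their part in the results was not tested.

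Of the 10 restriction factors 9 were tested and 6 rose with MPZL3 knockdown, namely MX1, RSAD2, BST2, SAMD9, SAMD9L and SAMHD1. The same 6 genes rose with each hairpin on its own. Their rises spanned from 2.02-fold for SAMHD1 to 10.9-fold for MX1 when the 6 knockdown libraries were set against the 3 scr control libraries, and for all 6 genes every knockdown library was above every control library. MX2, APOBEC3B and APOBEC3C did not pass the test in that comparison, and APOBEC3G had too few counts to be tested. The hairpins share their controls, so the results of one are not independent of those of the other.

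Counts of genes called are read against the whole table. The genes were chosen with earlier results of these data known, so this comparison is a description. At an adjusted p under 0.05 (edgeR quasi-likelihood test, Benjamini-Hochberg adjustment over the 16928 genes), 6 of 9 restriction factors were higher with knockdown and 0 were lower, where 9.36% of all genes tested were higher and 6.40% lower. At an unadjusted p under 0.05, and with DESeq2 or limma-voom, the number lower was also 0. The 6 also had a log2 fold change of at least 1, which 3.51% of all genes reached as a called rise. The median log2 fold change was 2.06 over the 9 genes and 0.02 over all genes. Of all genes, 11.8% had the 6 knockdown libraries above the 3 control libraries, and 6 of the 9 restriction factors did. Of the 3 genes not called, all at adjusted p-values of 0.17 or more, APOBEC3B was the closest to a call.

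Values below are normalized counts, that is, counts scaled to the mean library size after TMM scaling, with the libraries of a group in the order of their replicate numbers. MX1 (ENSG00000157601, GRCh38 chr21:41420304-41459214, plus strand) had 159.6, 197 and 384 in scr control, 974, 1267 and 3006 with shMPZL3 #1 and 2765, 3201 and 4845 with shMPZL3 #2. The lowest knockdown library thus stood above the highest control, while replicate 3 of shMPZL3 #1 lay within the range of shMPZL3 #2. MX1 rose by a log2 fold change of 3.45 ± 0.50 (SE) in the grouped comparison (adjusted p = 0.000996, edgeR quasi-likelihood test; 6 against 3 libraries). With shMPZL3 #1 the log2 fold change was 2.84 ± 0.37 and with shMPZL3 #2 it was 3.88 ± 0.38. Without replicate 3 of shMPZL3 #1 the first of these was 2.20.

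MX2 (chr21:41361943-41409390, plus strand), the paralog upstream of MX1 on the same chromosome, had 104, 145 and 107 in scr control, 123, 101 and 129 with shMPZL3 #1 and 135, 172 and 190.2 with shMPZL3 #2. The groups overlapped, although 2 of the 3 shMPZL3 #2 libraries were above all controls. Its log2 fold change was 0.25 ± 0.22 in the grouped comparison (adjusted p = 0.463), -0.02 ± 0.20 with shMPZL3 #1 (adjusted p = 0.945) and 0.47 ± 0.20 with shMPZL3 #2 (adjusted p = 0.12).

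RSAD2 (chr2:6865806-6898239, plus strand) was scarce in scr control, with 19.9, 11.3 and 19.2 normalized counts from 15, 12 and 14 reads. It had 112, 134 and 199.6 with shMPZL3 #1 and 127, 175 and 252 with shMPZL3 #2. All knockdown libraries were therefore well clear of the controls, and the hairpins overlapped each other. The log2 fold change was 3.33 ± 0.34 grouped (adjusted p = 0.000125), 3.17 ± 0.34 with shMPZL3 #1 and 3.49 ± 0.33 with shMPZL3 #2. CMPK2, a nucleotide kinase gene that overlaps RSAD2 by 829 bases on the genome and by 14 exonic bases, also rose, by a log2 fold change of 2.36 ± 0.35 (adjusted p = 0.00124).

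BST2 (chr19:17402939-17405648, minus strand) had 687, 733 and 869 normalized counts in scr control, 1928, 2100.4 and 3713 with shMPZL3 #1 and 3890.4, 3952 and 3456 with shMPZL3 #2. It rose 4.16-fold in the grouped comparison, with a log2 fold change of 2.06 ± 0.24 (adjusted p = 0.000363). The values for the hairpins were 1.76 ± 0.19 with shMPZL3 #1 and 2.30 ± 0.19 with shMPZL3 #2. The 3 libraries of shMPZL3 #2 were close together, whereas replicate 3 of shMPZL3 #1 stood above the other two of its group. BISPR, a long noncoding RNA next to the BST2 start that was named after its values were seen, rose by a log2 fold change of 1.69 ± 0.50 (adjusted p = 0.036). MVB12A, a protein-coding gene that starts 74 bases from BST2 on the same side and strand as BISPR and overlaps its span, had 0.03 ± 0.11 (adjusted p = 0.889).

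SAMD9 (chr7:93099513-93118023, minus strand) had 63.8, 122 and 177 normalized counts in scr control, 320.4, 556 and 724 with shMPZL3 #1 and 424, 696 and 731 with shMPZL3 #2. SAMD9L (chr7:93130055-93148369, minus strand), next to it, had 58.5, 133 and 188 in scr control, 644, 1402 and 1589.8 with shMPZL3 #1 and 565, 964 and 907 with shMPZL3 #2. Neither gene had a knockdown library within the range of the controls. SAMD9 rose by a log2 fold change of 2.25 ± 0.33 (adjusted p = 0.000996), with 2.14 ± 0.31 for shMPZL3 #1 and 2.35 ± 0.31 for shMPZL3 #2. SAMD9L rose by 3.00 ± 0.40 (adjusted p = 0.00061), with 3.26 ± 0.34 for shMPZL3 #1 and 2.68 ± 0.34 for shMPZL3 #2. SAMD9L was the only one of the 6 whose rise had a higher point estimate with shMPZL3 #1 than with shMPZL3 #2, and that difference did not pass the test (-0.58 ± 0.29, adjusted p = 0.206). It did pass with no filter on low counts (-0.58, adjusted p = 0.000239) and without replicate 1 of shMPZL3 #1 (-0.89, adjusted p = 0.0281). The same difference also passed with the replicate number as a block in the fit.

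SAMHD1 (chr20:36889773-36951901, minus strand) had 847, 924 and 852 normalized counts in scr control, 1091, 1456 and 1917 with shMPZL3 #1 and 1734, 1992 and 2394 with shMPZL3 #2. Controls were tight and lay below all knockdown libraries. Its rise was the smallest of the 6, with a log2 fold change of 1.01 ± 0.19 (adjusted p = 0.005), 0.77 ± 0.16 for shMPZL3 #1 (adjusted p = 0.0018) and 1.22 ± 0.16 for shMPZL3 #2. Other genes share 10.3% of its exonic bases, the main one being TLDC2 with 19 counts over all 9 libraries against 13783 for SAMHD1.

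**Figure D1:**
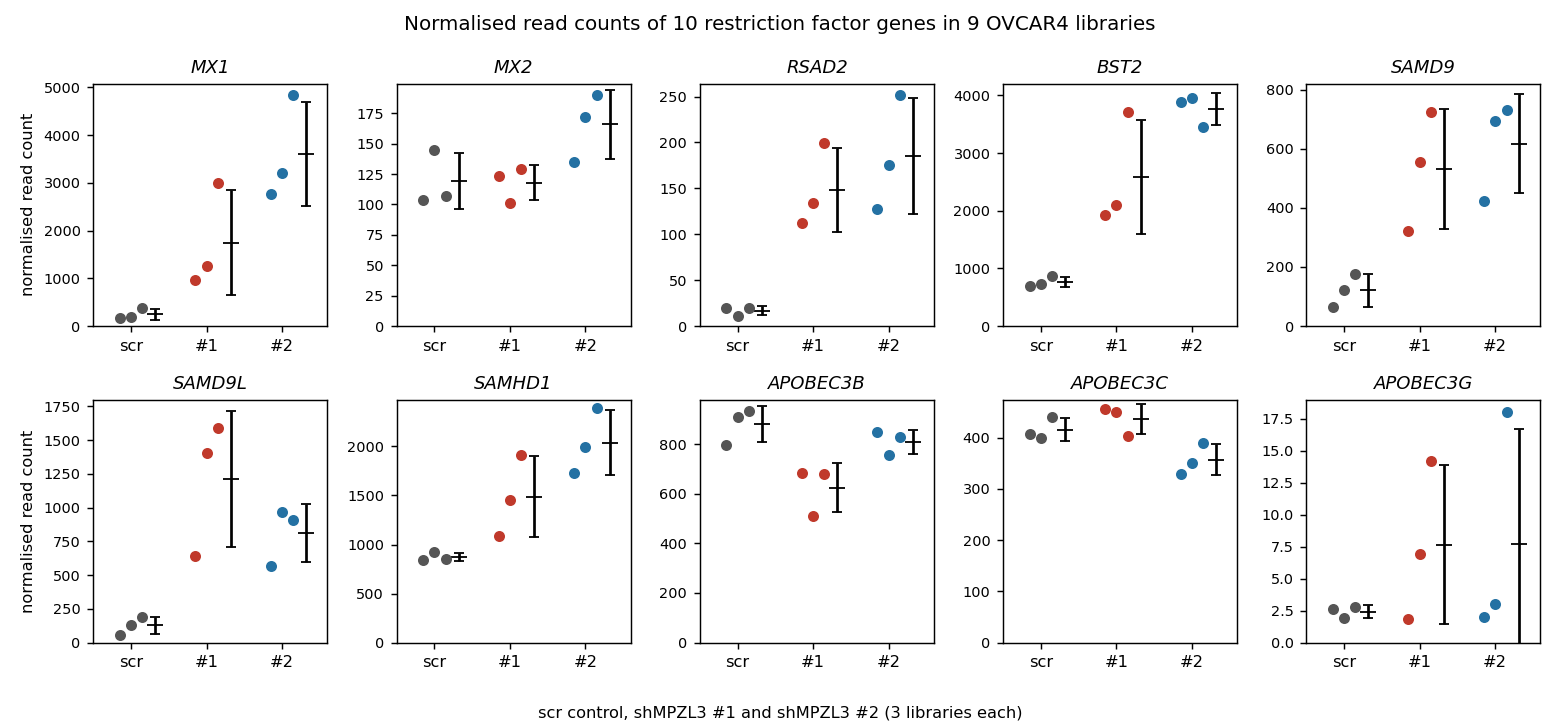
Normalized read counts (y axis, linear, from 0, with a scale for each gene) of the 10 genes in scr control, shMPZL3 #1 and shMPZL3 #2. Points are the 3 libraries of a group in the order of replicate number, and the mark beside them is the mean with its SD. For MX1, RSAD2, BST2, SAMD9, SAMD9L and SAMHD1 the 6 knockdown libraries sit above the 3 controls, and APOBEC3G stays at or under 18.

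APOBEC3B and APOBEC3C did not follow these 6, and APOBEC3G could not be tested. APOBEC3B (chr22:38982347-38992804, plus strand), the member known for mutating tumor genomes, had 798, 911 and 936 normalized counts in scr control, 685, 512 and 680.0 with shMPZL3 #1 and 849, 757 and 828 with shMPZL3 #2. All 3 libraries of shMPZL3 #1 were below the controls, and those of shMPZL3 #2 overlapped them. It fell with shMPZL3 #1 (log2 fold change -0.50 ± 0.12, adjusted p = 0.00587) and passed no test with shMPZL3 #2 (-0.12 ± 0.12, adjusted p = 0.558) or in the grouped comparison (-0.30 ± 0.14, adjusted p = 0.17). Other genes share 23.3% of its exonic bases, the main one being APOBEC3A, which had 12 counts in all 9 libraries together.

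APOBEC3C (chr22:39014083-39020352, plus strand) had 408, 399 and 441 in scr control, 457, 450.1 and 403 with shMPZL3 #1 and 330.0, 351 and 390.1 with shMPZL3 #2. The libraries of shMPZL3 #2 lay just below the controls, and those of shMPZL3 #1 overlapped them. The log2 fold change was -0.07 ± 0.13 grouped (adjusted p = 0.759), 0.07 ± 0.12 with shMPZL3 #1 (adjusted p = 0.708) and -0.22 ± 0.13 with shMPZL3 #2 (adjusted p = 0.266).

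APOBEC3G (chr22:39077005-39087743, plus strand), which restricts retroviruses lacking Vif, had 2 reads in each of the 3 scr control libraries. It had 2, 7 and 15 reads with shMPZL3 #1 and 2, 3 and 24 with shMPZL3 #2. The higher values came from 1 or 2 libraries of a hairpin, the lowest library of each hairpin was level with the controls, and the gene failed the filter, so no fold change is given. Of the 8 other AID/APOBEC deaminase genes, APOBEC3F alone was expressed enough to be tested. APOBEC3F had 67.8, 83 and 49.5 normalized counts in scr control, 109, 126 and 155 with shMPZL3 #1 and 87.1, 74.1 and 135 with shMPZL3 #2. It rose with shMPZL3 #1 (log2 fold change 0.95 ± 0.26, adjusted p = 0.0105), and its grouped value was 0.77 ± 0.26 (adjusted p = 0.062).

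**Figure D2:**
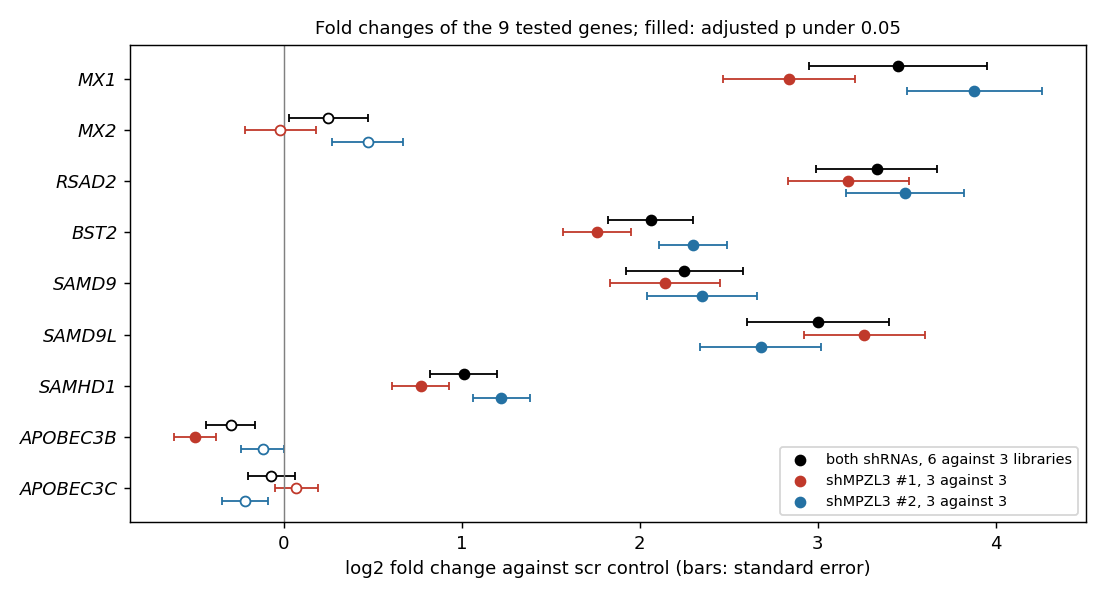
Log2 fold change against scr control (x axis) of the 9 genes tested, for both hairpins together (black), shMPZL3 #1 (red) and shMPZL3 #2 (blue), with standard errors as bars; filled points had an adjusted p under 0.05. The 6 genes that rose lie between 0.77 and 3.88, and APOBEC3B with shMPZL3 #1 is the 1 filled point below 0.

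Taken one hairpin at a time, 6 of 9 genes were higher and 1 was lower with shMPZL3 #1, where 16.8% of all genes were higher and 15.3% lower. With shMPZL3 #2, 6 were higher and 0 lower, where 9.36% of all genes were higher and 5.80% lower. The number lower stayed at 0 at an unadjusted p under 0.05 and with DESeq2 or limma-voom. The median log2 fold change of the 9 genes was 1.76 with shMPZL3 #1 and 2.30 with shMPZL3 #2. Set against each other directly, shMPZL3 #2 had higher MX1, BST2 and APOBEC3B than shMPZL3 #1, which is 3 of 9 genes higher and 0 lower, against 7.56% of all genes higher and 7.56% lower. The differences were 1.04 ± 0.33 for MX1 (adjusted p = 0.0399), 0.55 ± 0.18 for BST2 (adjusted p = 0.0491) and 0.38 ± 0.12 for APOBEC3B (adjusted p = 0.0493), each on the log2 scale. These calls stood near the threshold and were lost in 4 of 19 alternatives for MX1, 14 for BST2 and 13 for APOBEC3B. At an unadjusted p under 0.05, 1 gene, APOBEC3C, was lower. MX1 was not called by DESeq2 (adjusted p = 0.184) or without replicate 1 or 2 of shMPZL3 #1 or replicate 3 of shMPZL3 #2, where the difference was 0.75, 0.86 and 0.76. Without replicate 3 of shMPZL3 #1 it was 1.69. MPZL3 itself was lower with shMPZL3 #1 than with shMPZL3 #2, at 128 ± 12.9 against 312 ± 59.5 normalized counts (SD, n = 3 each). Of the 6 genes that rose, SAMD9L alone had the higher point estimate with shMPZL3 #1. A relation of these genes to the remaining MPZL3 transcript was not tested.

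Within a hairpin the libraries differed by gene in much the same order. For all 6 genes that rose, replicate 1 of shMPZL3 #1 was the lowest of its group and replicate 3 the highest. In shMPZL3 #2, replicate 1 was lowest for 5 of the 6 genes, the exception being BST2, and replicate 3 was highest for 4. Replicate 1 of scr control was lowest for 5 of the 6 and replicate 3 highest for 4. The MPZL3 counts of shMPZL3 #1 did not follow this order, with 119, 143 and 123 in replicates 1 to 3. The share of counts from mitochondrial genes was 8.65%, 8.52% and 7.75% in those libraries and 7.155% to 7.795% in the other 6. Replicate 1 had the highest share in every group, and its part in the order was not tested.

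Levels of different genes were compared only as CPM (counts scaled to a common library size) per kb of exonic gene length. That length joins the exons of all transcripts. It was 13047 bases for MX2, whose longest transcript has 4064, and 1119 for BST2, whose longest has 1019. The order of genes and the overlap of ranges below hold for this length and can differ with another. In scr control BST2 was highest at 33.2 ± 4.11 (SD, n = 3), followed by APOBEC3B at 22.6 ± 1.89, APOBEC3C at 7.19 ± 0.385 and SAMHD1 at 3.78 ± 0.187, and the ranges of these 4 genes were separate. MX1 at 1.39 ± 0.678, SAMD9L at 0.864 ± 0.445, SAMD9 at 0.859 ± 0.403 and MX2 at 0.443 ± 0.086 followed, each overlapping its neighbor in the order. RSAD2 at 0.17 ± 0.0483 and APOBEC3G at 0.0218 ± 0.00425 were lowest. The order changed with knockdown. MX1 moved from the fifth place to the third with both hairpins, at 9.88 ± 6.21 and 20.4 ± 6.20, where its range overlapped that of APOBEC3B at 16.1 ± 2.53 and 20.8 ± 1.25. BST2 reached 112 ± 42.8 and 164 ± 11.8, a level above 98.4% and 98.9% of the genes tested, against 91.7% in scr control. RSAD2 passed MX2, at 1.5 ± 0.46 against 0.439 ± 0.0535 with shMPZL3 #1 and 1.86 ± 0.636 against 0.619 ± 0.106 with shMPZL3 #2, and those ranges were separate.

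**Figure D3:**
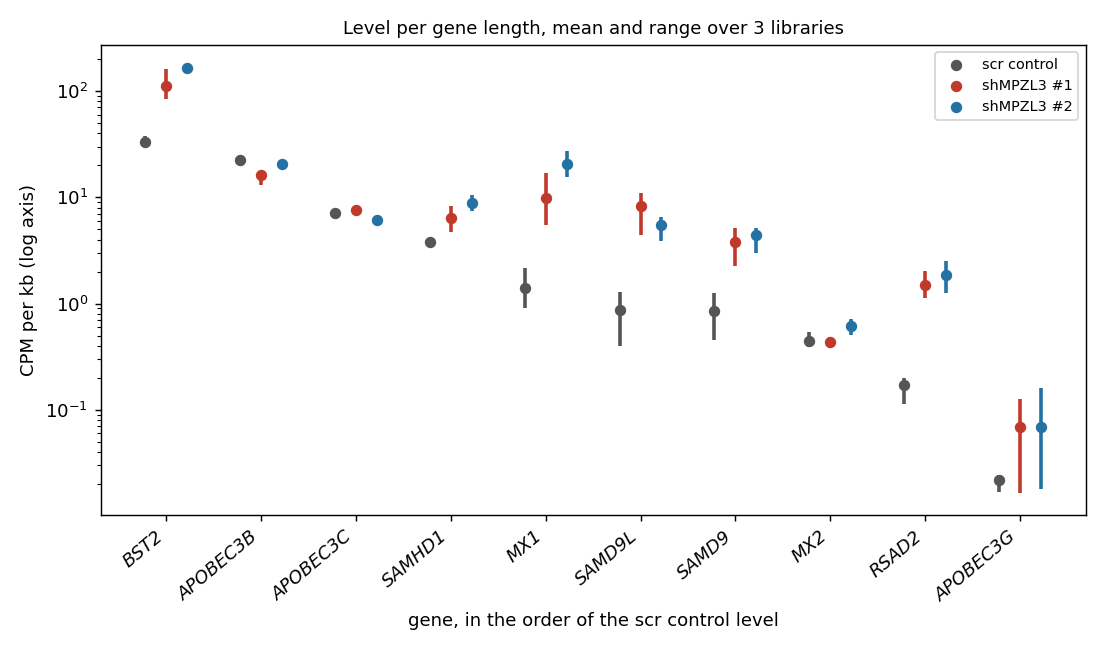
Level of each gene in CPM per kb (y axis, log scale) in the 3 groups, with points at the mean and lines over the range of 3 libraries, ordered by the level in scr control. BST2 stays on top in all groups, while MX1, SAMD9L, SAMD9 and RSAD2 move up and MX2 and APOBEC3C stay near their control level.

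Related genes were also compared within each library, since a ratio of counts from 1 library does not depend on how that library was scaled. The log2 ratio of MX1 to MX2 counts was 0.61, 0.44 and 1.82 in scr control, 2.97, 3.62 and 4.53 with shMPZL3 #1 and 4.34, 4.20 and 4.66 with shMPZL3 #2. It was higher by 3.10 with knockdown (two-sided exact permutation p = 0.0119, the smallest that 6 against 3 libraries allow; 0.107 after Benjamini-Hochberg adjustment over 9 comparisons). The ratio of SAMD9 to SAMD9L was 0.12, -0.13 and -0.09 in scr control, -1.0, -1.33 and -1.13 with shMPZL3 #1 and -0.41, -0.47 and -0.31 with shMPZL3 #2. The 3 groups did not overlap, and the grouped difference was -0.75 (exact permutation p = 0.0238, adjusted p = 0.107). For APOBEC3B to APOBEC3C the grouped difference was -0.23 (exact permutation p = 0.417), with -0.57 for shMPZL3 #1 and 0.10 for shMPZL3 #2. None of the 9 comparisons passed after adjustment, and 3 against 3 libraries cannot go below a p of 0.1. The grouped MX1 to MX2 comparison had the smallest p possible and still came to 0.107. The adjusted test thus had little room to pass, and no conclusion is drawn from its outcome.

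**Figure D4:**
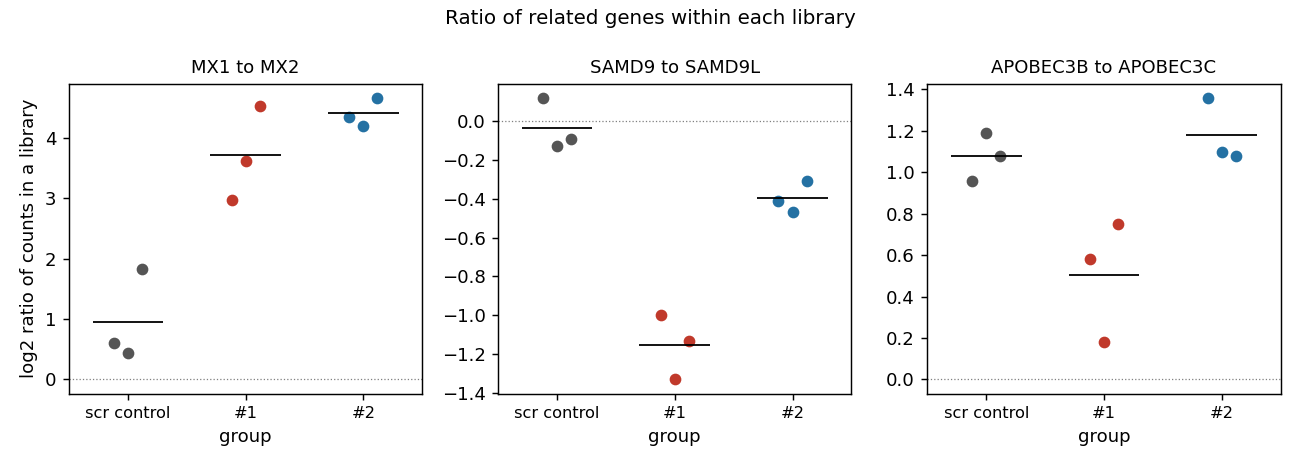
Log2 ratio of the counts of 2 related genes within each library (y axis, with its own scale in each panel) by group; points are libraries and lines are group means. MX1 to MX2 goes from a mean of 0.96 in scr control to 3.70 and 4.40, SAMD9 to SAMD9L from -0.03 to -1.16 and -0.40, and APOBEC3B to APOBEC3C from 1.08 to 0.51 and 1.18.

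Other genes of the pathway were counted from lists, which were also chosen with earlier results of these data known. Of 50 other restriction factor genes 49 were tested, and 33 were higher and 1 lower in the grouped comparison, with a median log2 fold change of 0.94, where 9.36% of all genes tested were higher and 6.40% lower. The largest rises called with both hairpins were OAS2 (5.54 ± 0.90, adjusted p = 0.00194), OAS1 (5.04 ± 0.70), TRIM22 (3.69 ± 0.46), OAS3 (3.28 ± 0.50) and IFIT1 (2.83 ± 0.43), all on the log2 scale. OAS1, OAS2 and OAS3 make the 2-5A messenger that activates RNase L, TRIM22 is a ubiquitin ligase and IFIT1 binds viral RNA caps. OAS2 had 9.06 ± 9.21 normalized counts in scr control and OAS1 11.8 ± 11.3 (SD, n = 3), so their fold changes are imprecise. The gene that fell was SMC5 (-0.49 ± 0.11, adjusted p = 0.0123), a subunit of the SMC5/6 complex that silences extrachromosomal DNA, named after its value was seen.

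The interferon genes themselves had few reads. None of 22 interferon ligand genes passed the filter, 13 had no count in any library and 18 had at most 3 in any library. IFNB1 had 1 read and IFNL1 had 2 reads over all 9 libraries, both in shMPZL3 #1. The interferon gene with the most reads, IFNE, had sums of 26, 25 and 22 over the 3 libraries of scr control, shMPZL3 #1 and shMPZL3 #2. The shMPZL3 #2 libraries together held 7 reads of IFNL4, 5 of IFNL2, 4 of IFNW1, 3 of IFNL3 and 2 of IFNA10, and IFNE and these 5 genes were named after their values were seen. Counts this low set a limit on detection in these harvested cells only. Of 20 genes for interferon receptors, JAK-STAT signaling and its feedback, all 20 were tested, and 7 were higher and 0 lower (0 also at an unadjusted p under 0.05), with a median log2 fold change of 0.41, against the same 9.36% and 6.40% of all genes. IRF7 rose by 1.89 ± 0.43 (adjusted p = 0.0119), USP18 by 1.12 ± 0.14, IRF1 by 0.87 ± 0.12 and STAT2 by 0.73 ± 0.13. IRF9, a DNA-binding subunit of an ISRE-binding complex, had only 10.7 ± 2.90 in scr control. Its grouped value of 0.92 ± 0.49 did not pass the edgeR quasi-likelihood test (adjusted p = 0.22). By hairpin, IRF9 had 0.28 ± 0.50 with shMPZL3 #1 (adjusted p = 0.715) and 1.37 ± 0.48 with shMPZL3 #2 (adjusted p = 0.0622). Neither passed, although all shMPZL3 #2 libraries lay above all controls.

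The genes nearest to MX1 in pattern, by the root mean square difference of centered log2 CPM over the 9 libraries among 11907 genes, were OAS3 at 0.27, IFIT1 at 0.38 and XAF1 at 0.49. For the mean of the 9 tested genes they were PARP9 at 0.08, PARP14 at 0.14 and ARHGAP31 at 0.14. XAF1, known as an antagonist of the apoptosis inhibitor XIAP, averaged 13.5 ± 8.34 normalized counts in the controls against 173 ± 49.4 and 229 ± 46.6 for the hairpins. PARP9, an ADP-ribosyltransferase family gene, averaged 859 ± 178 against 2227 ± 595 and 2864 ± 525. Among the 9 genes themselves the closest pair was MX2 with APOBEC3B at 0.32, neither of which changed in the grouped comparison by the test, and the closest pair that rose was BST2 with SAMD9 at 0.44, followed by SAMD9 with SAMD9L at 0.48 and MX1 with RSAD2 at 0.53. This measure describes likeness over 9 libraries in 3 groups and carries no test.

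**Figure D5:**
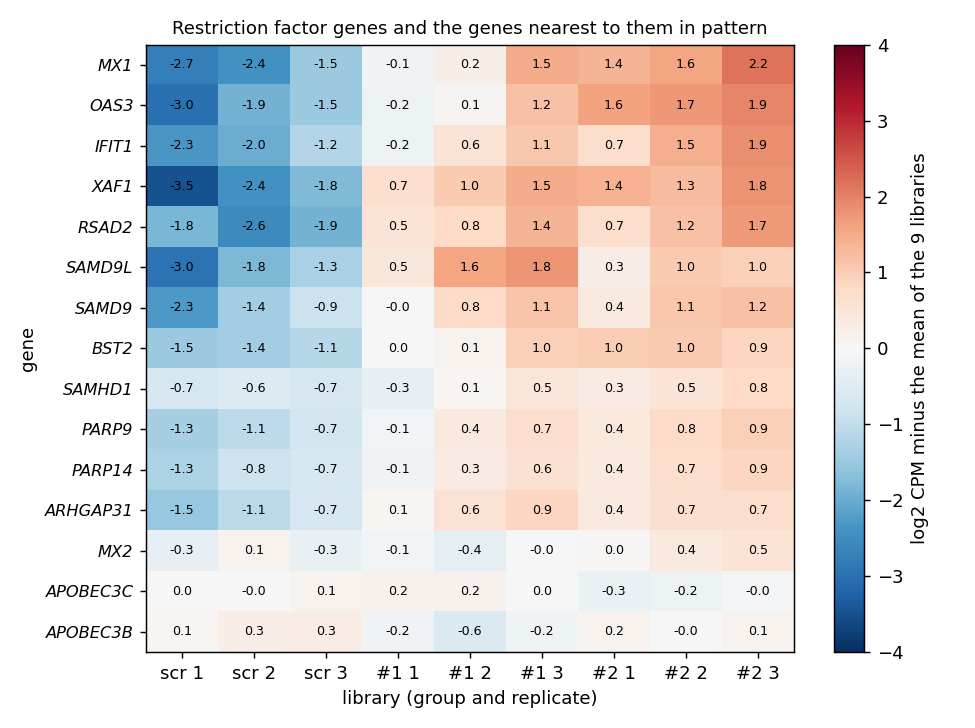
Log2 CPM of 15 genes in the 9 libraries (columns, by group and replicate) minus each gene's mean over the libraries, in log2 units printed in the cells. MX1 and the genes nearest to it are negative in the 3 control libraries and highest in the third library of shMPZL3 #2, and MX2, APOBEC3C and APOBEC3B stay near 0.

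Flanking genes were counted as well. Of 13 distinct tested protein-coding genes that flank the 10 genes, 5 were called in the grouped comparison, 3 higher and 2 lower, beside 9.36% of all genes higher and 6.40% lower. CMPK2 beside RSAD2 was the one with a log2 fold change over 1. CBX6 (0.44 ± 0.14, adjusted p = 0.0459) and CBX7 (0.41 ± 0.13, adjusted p = 0.0498), which bracket the APOBEC3 cluster, were slightly higher. RNF144A (-0.48 ± 0.14, adjusted p = 0.0313) on the other side of RSAD2 and SOGA1 (-0.40 ± 0.11, adjusted p = 0.023) beside SAMHD1 were lower. TMPRSS2, 5337 bases from MX1, had 0.13 ± 0.17 (adjusted p = 0.625), and VPS50, the nearest tested gene beyond SAMD9L, had -0.22 ± 0.12 (adjusted p = 0.216).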

How the data were processed

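The deposited counts are raw reads per gene of 9 OVCAR4 libraries. The authors made them without normalization or pooling, and the submitters' processing notes name HISAT2 2.0.5, featureCounts 1.5.0-p3 and hg38; how reads in overlapping or repeated sequence were counted is not given in the sources used here. The counts were analyzed with edgeR 4.0.16 in R 4.3.3 (filterByExpr, TMM, two-sided quasi-likelihood tests, Benjamini-Hochberg adjustment over 16928 genes). All 58735 genes matched GENCODE 29. The grouped comparison fitted 6 knockdown against 3 scr control libraries, as in the study's methods; the comparisons of single hairpins used a fit of 3 groups. SE is the log2 fold change divided by the root of F. Log2 CPM used a prior count of 2. Fits were checked on simulated data. DESeq2 1.42.0, limma 3.58.1 and other settings were alternatives. The 10 genes are those of the chosen list. From other lists, up to 5 genes with the largest grouped changes called with both hairpins were named, together with IFNB1, IFNL1, STAT2 and IRF9 (1 further gene that the rule names is not reported here), the genes nearest in pattern, and flanking genes. Members and lists were chosen with earlier results of these data known. Exonic length is the length in the count table, equal to the GENCODE 29 exon union for these genes. Total counts were 15040102 to 27835841 per library, and APOBEC3G had too few reads to be tested.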

Additional observations from a re-analysis of the deposited data

Results flagged for a closer look

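MX1, BST2 and APOBEC3B differed between the hairpins by the test of that difference itself (edgeR quasi-likelihood test). MX1 was higher with shMPZL3 #2 than with shMPZL3 #1 by 1.04 on the log2 scale (adjusted p = 0.0399), BST2 by 0.55 (adjusted p = 0.0491) and APOBEC3B by 0.38 (adjusted p = 0.0493). The call was lost in 4 of 19 alternatives for MX1, DESeq2 among them, in 14 for BST2 and in 13 for APOBEC3B. MX1 and BST2 rose with both hairpins, and APOBEC3B fell with shMPZL3 #1. In 10 groups of 6 knockdown libraries, no library stood apart by Dixon's test, where chance alone flags about 1 in 20 groups. These groups are the same 6 libraries and are not independent. Each pools both hairpins, so a library apart within 1 hairpin can lie inside the range of the other and go unflagged.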

How the results depend on the processing

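The rises of MX1, RSAD2, BST2, SAMD9, SAMD9L and SAMHD1 passed the test in every alternative run for the grouped comparison and for each hairpin, except that SAMHD1 with shMPZL3 #1 lies under a log2 fold change of 1, which leaves 5 genes at that added threshold. Single genes gave 684 values under the alternatives, with 642 on the same side of the threshold, 31 no longer called, 11 newly called and 0 reversed. Of those no longer called, all were in shMPZL3 #2 against shMPZL3 #1, where 6 alternatives also called SAMHD1 higher. APOBEC3B was called lower in the grouped comparison (1 gene lower, -0.31, adjusted p = 0.0389) when both hairpins were averaged in the fit of 3 groups, and with a log2 fold change of at least 1 no gene (0) was lower with shMPZL3 #1. MX2 with shMPZL3 #2 was called by limma-voom alone (0.41, adjusted p = 0.0492).

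Between the hairpins, 1 of the 9 genes was higher, in place of 3, with a log2 fold change of at least 1, with RLE or upper-quartile scaling, with a minimum of 10 counts in every library, among protein-coding genes only and with the 2 groups fitted alone, and 0 to 3 were higher when 1 library was left out. SAMD9L was called lower (1 gene) with no filter, with the replicate block and without replicate 1 of shMPZL3 #1 (-0.89), so leaving out a library gave 0 to 1 genes lower. The SAMD9 to SAMD9L ratio difference ranged from -0.84 to -0.63 when 1 library was left out, all in the same direction. With all libraries it had not passed after adjustment, where the test had little room to pass. The cause of these changes was not tested.

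Over all genes, the counts called moved more. The grouped counts of 1584 higher and 1083 lower were 594 and 87 with a log2 fold change of at least 1, 2751 and 2594 with limma-voom, 2479 and 2198 with the hairpins averaged, and 453 to 1771 and 172 to 1466 without 1 library. With shMPZL3 #1, 2838 and 2585 became 1006 and 236 at that fold threshold, with 1689 to 2824 lower without 1 library. With shMPZL3 #2, 1585 and 982 became 572 and 114 at that threshold and 3365 and 3236 with limma-voom, and were 910 to 1732 and 354 to 1388 without 1 library. Between hairpins, 1279 and 1280 became 221 and 318 at that threshold, and were 667 to 1521 and 798 to 1432 without 1 library.

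Same-numbered libraries correlated at 0.111, 0.000777 and 0.0434 between scr control and shMPZL3 #1, at 0.0396, -0.00143 and 0.0381 between scr control and shMPZL3 #2 and at 0.137, 0.218 and 0.0966 between hairpins, so the numbers were not taken to pair the samples. Between the hairpins every library correlated best with its own number, a hint from the data and not from the design. With the replicate block the grouped comparison gave 6 restriction factors higher and 0 lower (MX1 3.46), shMPZL3 #2 gave 1597 genes lower in place of 982, and the comparison of the hairpins gave 2015 higher in place of 1279, with 4 restriction factors higher and 1 lower (SAMD9L). Depth limits APOBEC3G and the interferon genes, where few or no reads were counted.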
